A study of Arabidopsis thaliana with 16 samples.

Results

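Leaves that had all been sprayed with jasmonic acid (JA) as adults were compared by what the same plants had received as seedlings. The 4 JA_JA libraries came from plants given JA at both ages, and the 4 W_JA libraries from plants given water as seedlings and JA as adults. These are 8 of the 16 libraries of the series, chosen by their labelled treatments, and every gene in the count tables entered. The plants were Arabidopsis thaliana of the wild-type accession Col-0, sprayed at 2 weeks of age with 1 mM JA or water (their history) and at 5 weeks with 0.1 mM JA or water (the challenge). Leaves were harvested 4 h after the challenge, and a library pooled 8 leaves of 2 plants, so plants within a library are averaged. Water sprays held the same ethanol as JA sprays, all sprays held 0.02% Silwet L-77 as a surfactant, and plants grew at 21 °C with 8.5 h of light. The other 8 libraries, W_W and JA_W, had the same histories and a water challenge, and serve here only as the same contrast without JA on the adult leaf.

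Jasmonates are fatty acid-derived hormones that leaves make after wounding and insect feeding. Their active conjugate joins the receptor COI1 to JAZ repressors, which are then degraded, and MYC transcription factors are released to switch on storage protein, glucosinolate and JA synthesis genes. A second branch, run with ethylene through ERF factors, controls defensin genes. In Arabidopsis leaves the JA pathway and the salicylic acid (SA) pathway, which serves defence against biotrophic microbes, are known to restrain each other. The question put to the data was whether a JA treatment of the seedling left a difference that is still seen when the adult leaf itself responds to JA.

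The 8 libraries held 32190193 to 34218917 counted reads, at which 1 read is about 0.0295 CPM, the unit of read counts scaled to library size, here with TMM factors. Genes that mark leaf mesophyll summed to 31410 to 43049 CPM in W_JA and to at least 43629 CPM in JA_JA, while markers of root and seed summed to at most 0.0653 CPM and those of flower to at most 1.05 CPM in any library. Guard cell markers summed to 68.8 to 80.2 CPM in W_JA and 65.4 to 106 CPM in JA_JA, with 2 of 4 called higher and 1 lower. Trichome markers summed to 7.65 to 9.39 CPM and 9.17 to 12.3 CPM, with 2 of 3 tested called higher, and the defining marker GL1 had no read in any of the 8. None of 3 phloem companion cell markers was called. The labels do not say whether plants of both histories shared trays, or were free of infection. Anything of that kind that followed history cannot be told apart from the seedling spray. In bulk leaf RNA, fewer cells of a type and less RNA per cell cannot be told apart either.

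The challenged libraries separated by history group. The first principal component of log2 CPM over 19224 genes held 72.5% of the variance and put the 4 W_JA libraries on one side, between -67.8 and -36.8, and the 4 JA_JA libraries on the other, between 27.4 and 73.5. The second component held 7.85% and spread the replicates within each group. The root mean square log2 difference between libraries of the same group ran from 0.341 to 0.520, and between groups from 0.597 to 1.05. The closest pair across groups was W_JA replicate 3 with JA_JA replicate 4, and that JA_JA replicate had the highest levels of its group in several of the gene lists below.

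**Figure D1:**
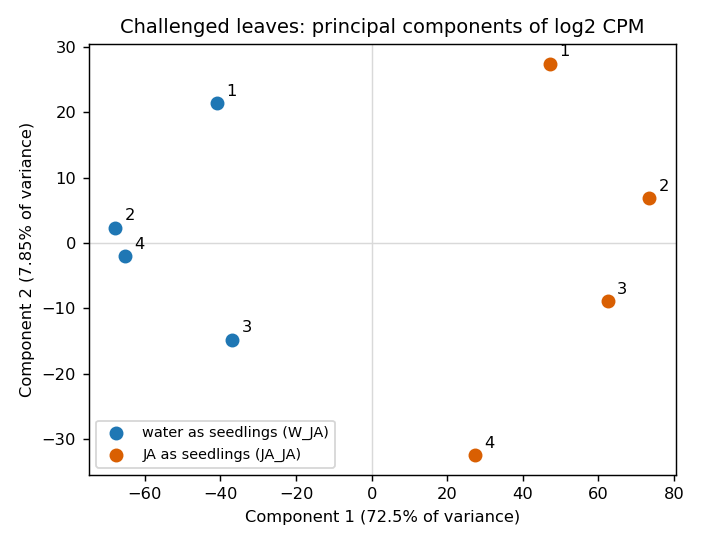
Principal components of the 8 challenged libraries (log2 CPM of genes tested, prior count 2), with component 1 on the horizontal axis (72.5% of the variance) and component 2 on the vertical axis (7.85%). Each point is a library, numbered by replicate, and the groups by seedling spray lie on opposite sides of 0 on component 1.

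Of 19224 genes tested, 7710 differed (40.1%), of which 3630 were higher (18.9%) and 4080 lower (21.2%) in JA_JA than in W_JA with the edgeR quasi-likelihood test at an adjusted p under 0.05, here termed called. Fold differences over 2 were found for 542 higher genes (2.82%) and 1435 lower genes (7.46%). The 4 values of one group lay wholly above or below those of the other for 2740 genes higher in JA_JA (14.3%) and 3532 lower (18.4%). Which direction held more genes depended on scaling: genes higher made up 47.1% of those called with TMM, 32.7% with library totals alone and 59.9% with upper-quartile factors, so no majority direction is claimed. The median log2 difference over all genes was 0.01 with TMM, -0.08 with library totals and 0.09 with upper-quartile factors. List counts below stand beside 18.9% higher and 21.2% lower, and list medians beside the all-gene median log2 difference of 0.01. List members were chosen with earlier results of these data known, so their shares describe the lists and are no independent support.

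**Figure D2:**
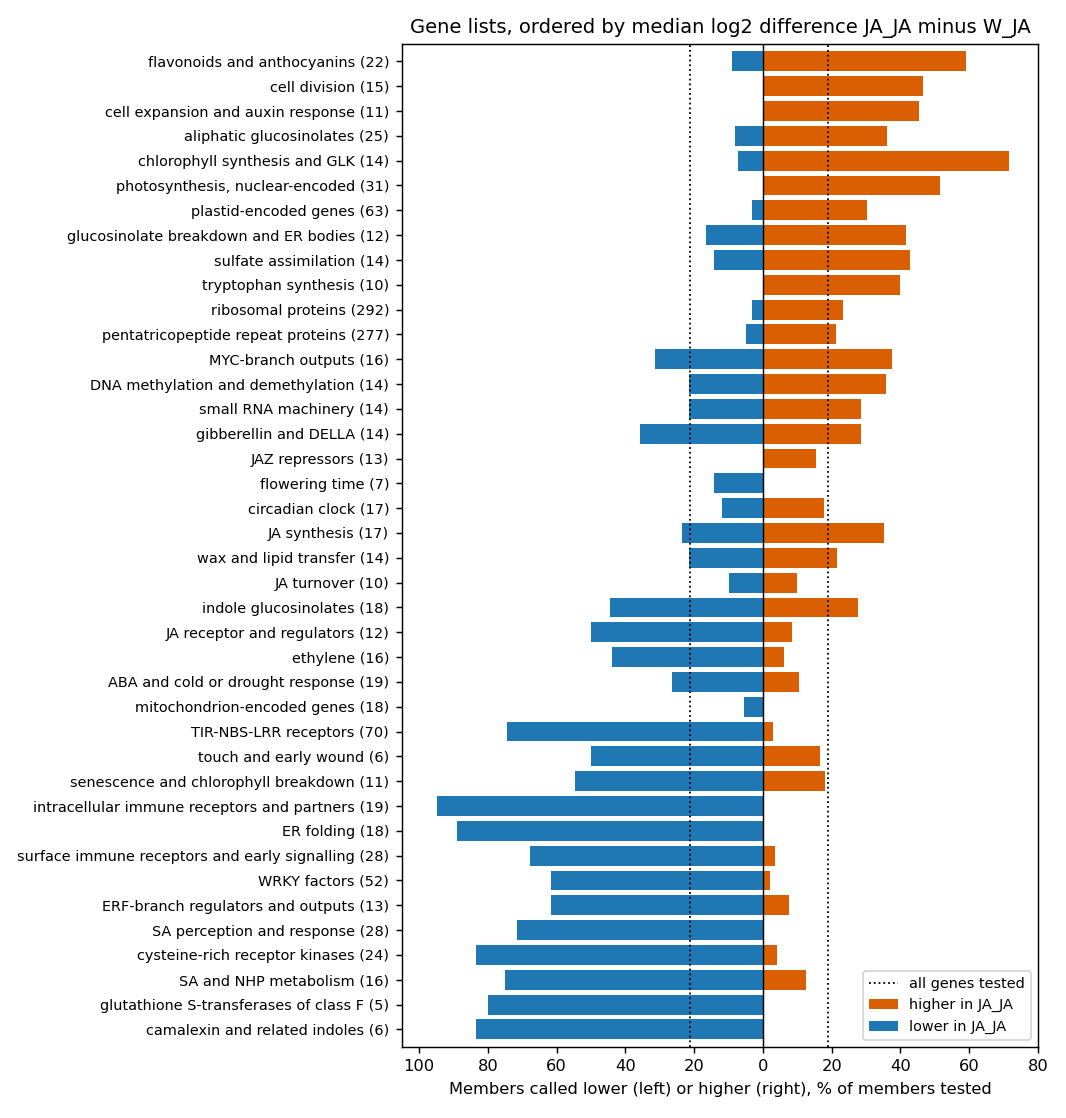
Share of each gene list called higher (right, orange) or lower (left, blue) in JA_JA than in W_JA, as % of members tested, whose number is in parentheses. Dotted lines mark the shares among all genes tested, 18.9% higher and 21.2% lower, and lists are ordered by median log2 difference, from camalexin and related indoles at -2.95 to flavonoids and anthocyanins at 0.80.

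Genes of JA synthesis split by enzyme and isoform. Of 17 tested, 6 were higher and 4 lower in JA_JA (median log2 difference -0.05, which turned to 0.04 with upper-quartile scaling). LOX2, the plastid lipoxygenase that supplies most of the wound-induced JA precursor, stood at 20064, 19413, 19621 and 22388 CPM in W_JA replicates 1 to 4 and at 20984, 24951, 25257 and 30443 CPM in JA_JA, and did not pass the test (log2 difference 0.32 ± 0.17, adjusted p = 0.144). LOX3, a second JA-producing lipoxygenase, had 126, 159.8, 103 and 169 CPM in W_JA and 37.7, 29.3, 43.0 and 90 in JA_JA. Its groups did not overlap, and it fell by 1.48 on the log2 scale (SE 0.29, adjusted p = 0.00112). The allene oxide cyclases, which form the jasmonate ring, went both ways. AOC1 was higher, from 929.5 ± 30 to 1494 ± 291 CPM (SD, n = 4; log2 difference 0.68 ± 0.22, adjusted p = 0.0221), and AOC2 and AOC4 were also called higher, while AOC3 was lower, from 19.9 ± 7.82 to 8.58 ± 2.61 CPM (log2 difference -1.21 ± 0.33). The call of AOC1 was lost without W_JA replicate 2 (adjusted p = 0.0562) or without JA_JA replicate 3 (0.0555) or 4 (0.0655). LOX4, like LOX3 a 13-lipoxygenase, had a log2 difference of -0.86 ± 0.24, and OPR3, the peroxisomal reductase of the pathway, and AOS, the allene oxide synthase, were higher by log2 0.66 and 0.53.

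Few genes that switch the pathway off or hold it in check passed the test under challenge. Of 10 JA turnover genes 1 was higher and 1 lower (median log2 difference -0.16). Without challenge 5 of the 10 were lower and 0 higher with a JA history (31.1% and 33.8% over all genes, median -1.38). The difference between the contrasts with and without challenge (the interaction) was called more positive for 4 of the 10 (8.01% over all genes). Under challenge the higher one was ILL5, listed among amidohydrolases of hormone conjugates, at 13.6, 35.8, 68.1 and 55.6 CPM in W_JA and 124, 114, 144 and 155 in JA_JA (log2 difference 1.63 ± 0.34, adjusted p = 0.00206). The lower one was CYP94C1, an oxidase of the active conjugate, at 14.9 ± 4.40 to 10.3 ± 2.26 CPM, and its adjusted p of 0.0498 stood at the threshold (0.0512 to 0.0881 with DESeq2, RLE or upper-quartile scaling, the filter of 1 CPM, no low-count filter or the compared groups alone, 0.199 and 0.124 without W_JA replicate 2 or 4, and 0.166, 0.0767 and 0.0852 without JA_JA replicate 2, 3 or 4). Of 13 JAZ repressor genes (median log2 difference -0.02, which turned to 0.06 with upper-quartile scaling), 2 were higher, JAZ9 from 693 ± 101 to 909 ± 67.1 CPM (log2 difference 0.39 ± 0.14, adjusted p = 0.0306) and JAZ4 from 0.665 ± 0.105 to 1.13 ± 0.314 (log2 difference 0.77 ± 0.25). JAZ9 lost its call without JA_JA replicate 3 or 4 or W_JA replicate 1 (adjusted p = 0.0737, 0.0769 and 0.104) or with library totals (0.111), and JAZ4 without JA_JA replicate 2 or W_JA replicate 4 (0.0778 and 0.0734) or with library totals (0.0522). The other 11 JAZ genes lay between log2 -0.45 and 0.34, among them JAZ10, a marker of acute JA signalling, at 16.9, 31.6, 16.9 and 30.9 CPM in W_JA and 20.3, 12.3, 20.7 and 20.6 in JA_JA (log2 difference -0.38 ± 0.27, adjusted p = 0.276).

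Of 12 receptor and regulator genes tested, 6 were lower and 1 higher (median log2 difference -0.21). The other member of this list, MYC2, held too few reads to be tested, and it overlaps a gene on the other strand over 3241 bases. The 3 largest differences were in NAC transcription factors that act downstream of MYC2. NAC019 had 16.7, 44.7, 24.7 and 44.9 CPM in W_JA and 8.62, 6.09, 11.3 and 19.6 in JA_JA, so that the highest JA_JA library overlapped the lowest W_JA library (log2 difference -1.53 ± 0.39, adjusted p = 0.0075). NAC055 differed by log2 -2.2 ± 0.43 and RD26 by -0.86 ± 0.24. COI1, the receptor, and MYC4 were lower (log2 differences -0.23 and -0.19), and NINJA, the adaptor of the JAZ repressors, was higher by 0.22. JAM3, a bHLH factor that opposes MYC2, had a log2 difference of -0.32 ± 0.09, a call lost without W_JA replicate 2 (adjusted p = 0.0503).

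Genes listed as outputs of the MYC branch divided into those higher and those lower after a JA history. Whether each member depends on MYC factors was not tested. Of 16 tested, 6 were higher and 5 lower (median log2 difference 0.12). VSP2, a vegetative storage protein with acid phosphatase activity toward insects, stood at 2516, 2770.0, 3289.7 and 2364 CPM in the W_JA libraries and at 5329, 8313, 8358 and 7743 CPM in JA_JA, with JA_JA replicate 1 lowest of its group and still above every W_JA library (log2 difference 1.44 ± 0.23, adjusted p = 0.000165). VSP1, its neighbour and close relative, had 1034, 1128, 1381 and 1095 CPM in W_JA and 2254, 3402, 3385 and 3246 in JA_JA (log2 difference 1.41 ± 0.24). Reads shared between this pair may have been split or dropped by the counting. TPS10, a monoterpene synthase, was higher by log2 1.37, CORI3, an aminotransferase-like protein, by 0.62 and ARGAH2, an arginase, by 0.48.

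TAT3, a tyrosine aminotransferase, ran the other way and was among the 6 most abundant genes that were over 2-fold lower. It stood at 1183, 3188, 751 and 2673 CPM in W_JA and at 237, 70.4, 71.6 and 369 CPM in JA_JA (log2 difference -3.38 ± 0.62, adjusted p = 0.00089). The W_JA libraries spread over a wide range, yet the lowest of them lay above the highest JA_JA library. TPS04, the synthase of the homoterpene precursor geranyllinalool, went from 155 ± 123 to 20.3 ± 12.8 CPM (log2 difference -2.94 ± 0.58), and without W_JA replicate 2, which held 332 CPM, the difference was -2.25. CYP82G1, which completes that homoterpene, had a log2 difference of -1.89. TPS02 and the protease inhibitor KTI1 had log2 differences of -2.02 ± 0.33 and -6.66 ± 1.28, although KTI1 had no read in W_JA replicate 1, as in JA_JA replicate 1.

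Most genes listed for the ERF branch were lower after a JA history. Of 13 genes tested 8 were lower and 1 higher, with a median log2 difference of -1.24. PDF1.2 and its near-identical copies make up 4 of the 8 and may not be separate signals. ERF1 (log2 difference -1.02), ERF6 (-0.20) and the chitinase gene HCHIB (0.21) were not called. PDF1.2, the defensin used as a marker of this branch, had 4.66, 5.73, 8.26 and 2.62 CPM in W_JA and 2.01, 0.126, 0.326 and 1.21 in JA_JA, without overlap (log2 difference -2.51 ± 0.52, adjusted p = 0.00161). Its near-identical copies PDF1.2b, PDF1.2c and PDF1.3 had log2 differences of -3.27 ± 0.69, -4.40 ± 0.95 and -4.12 ± 0.82, values that are uncertain because short reads cannot always place such copies, and because JA_JA libraries held few reads of them. Without JA_JA replicate 1 these 4 differences became -3.27, -4.82, -6.19 and -5.33, and without W_JA replicate 3 those of PDF1.2c and PDF1.3 were -3.34 and -3.32. HEL, a hevein-like protein (PR4), went from 86.9 ± 30.3 to 7.92 ± 6.17 CPM (log2 difference -3.45 ± 0.52, adjusted p = 0.000197). ORA59, the ERF that drives the defensins, was barely detected, at 0.319, 0.0901, 0.514 and 0.142 CPM in W_JA and 0.230, 0.0316, 0 and 0.168 in JA_JA, and did not pass the test (adjusted p = 0.135). Without JA_JA replicate 1 its log2 difference moved from -1.24 to -1.96. THI2.1, a thionin, was the member that was higher (log2 0.84).

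SA defence genes were lower in plants with a JA history, and PR1 had the largest difference of all genes named. PR1, the secreted protein that serves as the standard SA marker, had 196, 917, 249 and 757 CPM in the W_JA libraries and 0.0862, 0, 0.0653 and 0.975 CPM in the JA_JA libraries, that is 71548 reads against 34. Every JA_JA library lay below 1 CPM and replicate 4 was the highest of them. The log2 difference was -10.92 ± 0.91 (adjusted p = 2.79e-06), and -13.24 without that replicate. PR2, a beta-1,3-glucanase, was among the most abundant of the genes that were over 2-fold lower, with 2191, 5361, 1869 and 4553 CPM in W_JA and 106, 40.9, 65.3 and 165 in JA_JA (log2 difference -5.21 ± 0.50, adjusted p = 6.67e-06). PR5, a thaumatin-like protein, stood at 537, 1424, 400.2 and 1174 CPM and 44.6, 41.0, 38.6 and 67.6 CPM in the same order (log2 difference -4.2 ± 0.39). In all 3 genes W_JA replicates 2 and 4 were the high libraries of their group, and the groups did not overlap.

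Of 28 SA perception and response genes 20 were lower and none was higher (median log2 difference -1.27). Of the SA receptors, NPR1 and NPR3 were lower at log2 -0.72 and -0.61, and NPR4 lay at -0.05 and was not called. They included 7 WRKY factors, such as WRKY62 (-3.22), WRKY38 (-3.09) and WRKY70 (-1.19), and NUDT6, a nucleotide hydrolase that fell from 49.2 ± 12.9 to 3.36 ± 1.67 CPM (log2 difference -3.87 ± 0.39). GRXC9, a glutaredoxin induced through TGA factors, did not pass the test, with 7.63, 16.8, 19.8 and 12.7 CPM in W_JA and 5.77, 9.69, 4.54 and 18.7 in JA_JA (log2 difference -0.56 ± 0.42, adjusted p = 0.313). JA_JA replicate 4 held the highest value of its group, and without it GRXC9 was called lower (-1.09, adjusted p = 0.0352). TGA2 and TGA6 differed by log2 -0.17 and 0.06 and did not pass either.

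Genes that make SA and N-hydroxypipecolic acid (NHP), the mobile signal of systemic resistance, were lower in the same way. Of 16 tested, 12 were lower and 2 higher, with a median log2 difference of -2.2. ALD1, the first enzyme of NHP synthesis, had 25.4, 86.2, 20.5 and 69.3 CPM in W_JA and 1.09, 0.347, 0.784 and 2.12 in JA_JA (log2 difference -5.54 ± 0.62, adjusted p = 2.38e-05). FMO1, the last enzyme of that route, had 9.26, 26.5, 6.08 and 24.4 and 0.0862, 0.0947, 0.359 and 0.504 CPM (log2 difference -6.01 ± 0.70). DLO1, an oxygenase that hydroxylates SA and is annotated as a 2-oxoglutarate dioxygenase (AT4G10500), stood at 72.8, 287, 52.1 and 162 CPM in W_JA and 2.01, 0.536, 1.53 and 2.69 in JA_JA (log2 difference -6.40 ± 0.64, and -5.82 without W_JA replicate 2). For each of these 3 genes the lowest W_JA library was above the highest JA_JA library. ICS1 and EDS5, which make and export the SA precursor, were lower by smaller amounts (log2 differences -1.62 and -1.74), as were their regulators CBP60g (-2.97 ± 0.26) and SARD1 (-2.3). The pair of genes that was higher comprised ICS2, the minor isochorismate synthase (0.79), and UGT74F1, an SA glucosyltransferase (0.88).

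**Figure D3:**
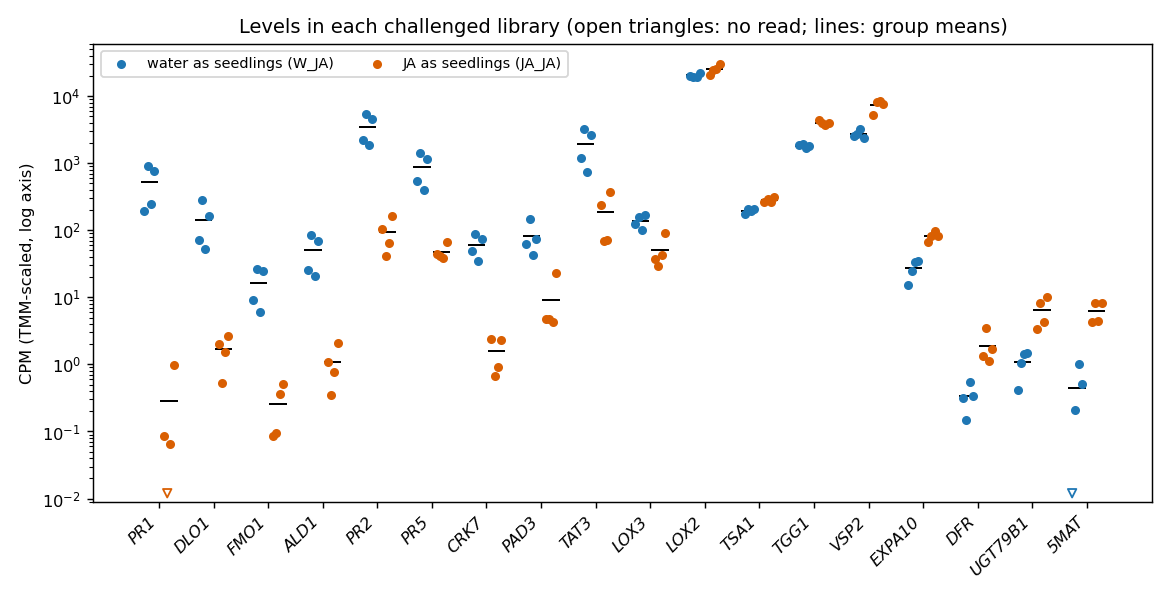
Level of 18 named genes in each of the 8 challenged libraries, in TMM-scaled CPM on a log axis, with W_JA in blue and JA_JA in orange. Points are libraries, black lines are group means and open triangles are libraries without a read. PR1 lies at 196 to 917 CPM in W_JA and below 1 CPM in JA_JA, while VSP2, TGG1 and the anthocyanin genes at the right lie higher in JA_JA.

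Receptors that detect microbes were lower across classes. Of 19 intracellular receptors and partners, 18 were lower and none higher (median log2 difference -0.78). HR4, an RPW8 homologue, had the largest difference, from 378 ± 109.9 to 45.5 ± 24.0 CPM (log2 difference -3.05 ± 0.48). Of the lipase-like signalling partners, PAD4 had 79.9, 104, 74.8 and 107 CPM in W_JA and 31.2, 21.5, 19.6 and 27.3 in JA_JA (log2 difference -1.88 ± 0.18, adjusted p = 3.86e-06), and SAG101 had 32.4 ± 7.01 and 10.5 ± 1.04 CPM (log2 difference -1.62 ± 0.18). EDS1, their common partner, differed by log2 -1.53 and its near-identical copy EDS1B (AT3G48080) by -2.09 ± 0.51, or by -2.69 without JA_JA replicate 1. Both values are uncertain because the copies may share reads, whose handling in the counting is not given. EDS1B also overlaps a gene on the other strand over 503 bases. The helper receptors ADR1, ADR1-L1 and ADR1-L2 differed by log2 -1.42, -1.09 and -1.27. Among all 70 tested genes annotated as TIR-NBS-LRR receptors, 52 were lower and 2 higher (median log2 difference -0.54), led by AT3G25510 (-3.45 ± 0.36) and AT4G11170 (-4.10 ± 0.39) among those with over 3 reads in JA_JA.

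Of 28 surface receptor and early signalling genes, 19 were lower and 1 higher (median log2 difference -0.87). FRK1, a kinase gene used as a marker of pattern-triggered immunity, had 22.7, 40.8, 19.0 and 32.8 CPM in W_JA and 1.18, 0.316, 0.653 and 2.39 in JA_JA (log2 difference -4.68 ± 0.61, adjusted p = 7.44e-05, and -5.30 without JA_JA replicate 4). RLP23, the receptor of a peptide shared by bacteria, oomycetes and fungi, had 138, 188, 92.1 and 179.5 and 11.5, 2.87, 3.95 and 10.4 CPM (log2 difference -4.38 ± 0.47), and its co-receptor SOBIR1 239, 374, 178 and 329.9 and 45.4, 30.6, 28.8 and 54.9 (log2 difference -2.81 ± 0.30). The groups did not overlap for any of the 3. FLS2, the flagellin receptor, differed by log2 -0.41 and BAK1, its co-receptor, by -0.48, while RBOHD, the oxidase that makes the immune oxygen burst, lay at -0.03 and did not pass the test. PROPEP3, the precursor of a danger peptide, was lower by few reads (log2 difference -3.68 ± 0.68, and -5.48 without JA_JA replicate 1). PEPR1, the receptor of such peptides, was the gene that was higher (0.28).

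Cysteine-rich receptor kinases (CRKs), a family with extracellular DUF26 domains that includes many SA-induced members, showed 20 of 24 members lower and 1 higher, with a median log2 difference of -1.85. CRK7 had 49.1, 87.1, 34.5 and 74.7 CPM in W_JA and 2.41, 0.663, 0.914 and 2.32 in JA_JA (log2 difference -5.27 ± 0.45, adjusted p = 3.22e-06). CRK6 had 96.7, 142, 72.4 and 126 and 8.56, 2.24, 3.69 and 8.74 CPM (log2 difference -4.23 ± 0.40), and CRK37 11.3, 19.4, 10.6 and 16.2 and 0.862, 0.126, 0.653 and 1.11 (log2 difference -4.38 ± 0.38). Differences ran from -5.27 for CRK7 to -0.56 for CRK41, and CRK21 was higher by 0.65. Most of these genes sit in a cluster of close relatives on chromosome 4, so reads shared among members may be split or dropped.

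WRKY factors, which bind the W-box and carry much of the immune response, followed. Of 52 tested, 32 were lower and 1 higher (median log2 difference -1.08). By size of difference WRKY41, WRKY59, WRKY67 and WRKY31 led, and all 4 had few reads. WRKY31 had 1.66, 4.89, 2.06 and 1.45 CPM in W_JA and 0.144, 0.0947, 0.0326 and 0.370 in JA_JA (log2 difference -3.96 ± 0.54, and -4.71 without JA_JA replicate 4). WRKY41 had 1 read in JA_JA, with a ratio of reads of 86.9 (95% counting interval 15.2 to 3471) and a fitted log2 difference that moved from -5.89 to -7.55 without JA_JA replicate 3, which held that read. WRKY59 had no read there and was at least 5.09-fold lower by the limit of 3 reads over the group. WRKY67 had reads in JA_JA replicate 4 alone of its group, and its log2 difference of -4.46 ± 0.77 became -8.02 without it.

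Promoters were searched because WRKY genes and receptor genes moved together. In the 300 bases before the annotated start (RefSeq, TAIR10.1), the W-box letters TTGACC or TTGACT on either strand were found in 711 of 1434 genes that were over 2-fold lower (49.6%), in 153 of 540 over 2-fold higher (28.3%) and in 6121 of all 19137 (32.0%). The site II letters TGGGCC, found before many genes of growing cells, were present in 9.27% of lower, 9.63% of higher and 17.8% of all promoters. The as-1 core TGACG was in 28.2% of lower, 22.2% of higher and 22.1% of all, and the G-box CACGTG, which MYC factors bind, in 6.35%, 9.26% and 8.07%. The as-1 core shares its letters TGAC with the W-box, so a TTGAC stretch can begin either. These are counts of letters and not of bound sites. Among lower genes, PR1, PR2, FMO1, ALD1 and CRK7 held no W-box letters in this window. The promoters of 3 lower genes with a pair of W-boxes are shown 5′ to 3′ in gene direction, with W-box letters in capitals.
CRK6 (chr4:12121069-12121368, plus strand): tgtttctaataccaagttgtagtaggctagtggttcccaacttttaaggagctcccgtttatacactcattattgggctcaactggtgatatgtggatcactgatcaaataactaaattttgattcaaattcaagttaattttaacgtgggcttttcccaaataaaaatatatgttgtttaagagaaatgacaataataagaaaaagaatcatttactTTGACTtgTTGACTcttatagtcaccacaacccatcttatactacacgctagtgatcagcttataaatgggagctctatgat
CRK37 (chr4:2238070-2238369, plus strand): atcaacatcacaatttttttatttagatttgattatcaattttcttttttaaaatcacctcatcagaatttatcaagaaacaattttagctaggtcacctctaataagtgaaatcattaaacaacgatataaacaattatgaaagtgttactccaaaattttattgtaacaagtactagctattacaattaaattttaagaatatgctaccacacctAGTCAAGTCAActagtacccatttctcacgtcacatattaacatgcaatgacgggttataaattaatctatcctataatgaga
FRK1 (chr2:8329945-8330244, minus strand): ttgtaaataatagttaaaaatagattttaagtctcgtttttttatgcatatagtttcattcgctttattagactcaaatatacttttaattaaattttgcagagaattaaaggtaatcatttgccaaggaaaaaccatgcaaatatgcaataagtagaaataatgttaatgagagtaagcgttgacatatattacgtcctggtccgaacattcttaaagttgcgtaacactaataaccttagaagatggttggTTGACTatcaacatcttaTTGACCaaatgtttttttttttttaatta
The matches lie at positions -82 to -77 and -74 to -69 from the start in CRK6 and at -47 to -42 and -29 to -24 in FRK1. In CRK37 they read AGTCAA, the reverse complement, at -83 to -78 and -78 to -73, and share 1 base.

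Secretory folding genes of the endoplasmic reticulum were lower, and camalexin genes too. Of 18 folding genes 16 were lower and none higher (median log2 difference -0.87). BIP3, the inducible member of the BiP chaperones, had 14.3, 41.6, 16.5 and 34.3 CPM in W_JA and 0.460, 0.0316, 0.294 and 0.504 in JA_JA (log2 difference -6.35 ± 0.66, adjusted p = 1.38e-05). The constitutive chaperones differed less, with BIP1 at -0.89 and BIP2 at -1.09. CRT3, the calreticulin needed for the EFR receptor, went from 360.2 ± 87.0 to 54.2 ± 15.3 CPM (log2 difference -2.73 ± 0.24). SHD, the HSP90 of this compartment, had 828, 1637, 698 and 1281 CPM in W_JA and 403, 424, 387 and 408 in JA_JA. JA_JA libraries lay within a narrow range, and all W_JA libraries were above it (log2 difference -1.46 ± 0.28). Of 6 tested genes of camalexin, the indole phytoalexin, and related indoles 5 were lower (median log2 difference -2.95). PAD3, the last enzyme, had 63.1, 147, 42.8 and 73.4 CPM in W_JA and 4.68, 4.76, 4.31 and 22.8 in JA_JA, where replicate 4 stood apart (log2 difference -3.17 ± 0.70, adjusted p = 0.00296, and -4.15 without it). CYP71A13 differed by -4.49 ± 0.72, or by -5.82 without that replicate. In class F glutathione S-transferases 4 of 5 were lower (median -2.49), as near-identical pairs that may share reads: GSTF2 with GSTF3 (-3.68 ± 0.57 and -3.65 ± 0.50) and GSTF6 with GSTF7 (-2.32 ± 0.54 and -2.49 ± 0.60). GSTF2 also overlaps a gene on the other strand over 1442 bases. The naming rule gave 177 genes with coordinates, counting picks from annotation lists that are not named here. Of these, 31 overlap another annotated gene, 28 of them on the other strand. Whether the counting used strand is not given in the sources used here. SOBIR1, CYP71A13, WRKY41, COR15B, IAA3 and TCH3 are among the 28. Of other list members, MYC2 and RPS2 overlap such genes over 3241 and 3285 bases and held too few reads to be tested. FLC, with an overlap of 6067 bases, was tested. So were CYP81F4, ADR1-L1 and SARD1, among others, with overlaps on the other strand of 2140, 1944 and 640 bases. The effect of overlaps on the counts was not tested.

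**Figure D4:**
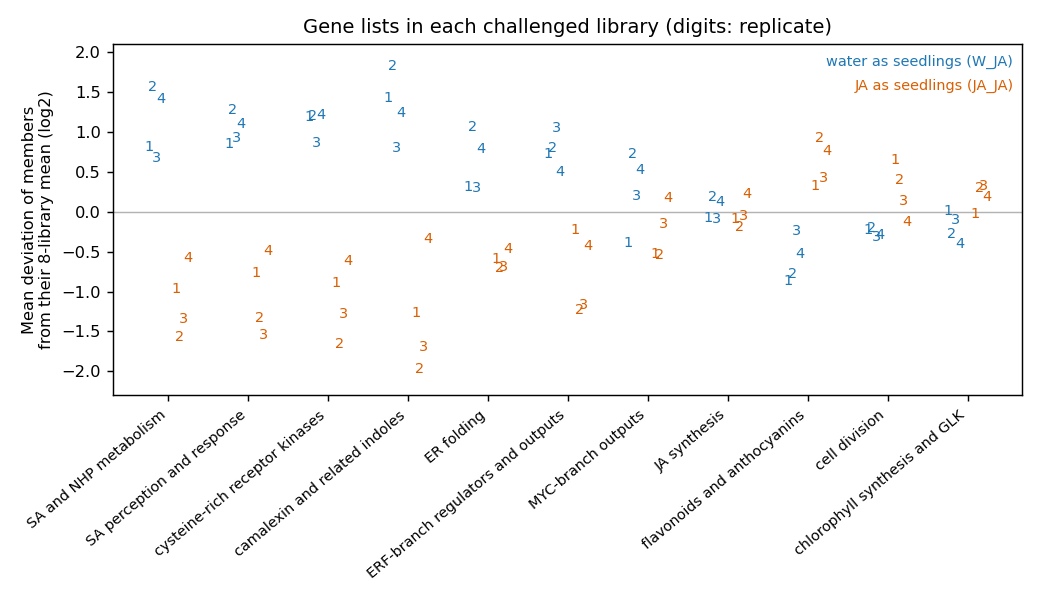
Mean deviation of each list's tested members from their mean over the 8 libraries (log2 of CPM plus 0.06, vertical axis), by library. Digits are replicate numbers, W_JA in blue and JA_JA in orange. W_JA replicates 2 and 4 are highest and JA_JA replicate 4 is highest of its group for SA and NHP metabolism, at 1.56, 1.41 and -0.58.

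Glucosinolates, the sulfur-rich defence compounds of the cabbage family, differed by class. Of 25 aliphatic genes 9 were higher and 2 lower (median log2 difference 0.49), and without JA_JA replicate 4, where MYB29 was lowest, 14 were higher. The regulators MYB29 and MYB76 led. MYB29 had 41.2, 26.1, 34.5 and 31.3 CPM in W_JA and 91.9, 76.0, 61.6 and 33.3 in JA_JA (log2 difference 0.98 ± 0.30, adjusted p = 0.018), with JA_JA replicate 4 inside the W_JA range, a call lost without JA_JA replicate 1 or W_JA replicate 2 or 4 (adjusted p = 0.0607, 0.0581 and 0.0502). MYB76 had 3.36 ± 0.375 and 7.39 ± 2.13 CPM (log2 difference 1.14 ± 0.23). MAM3, which elongates side chains, was lower, with 36.0, 19.9, 22.5 and 16.8 and 6.23, 1.48, 3.82 and 4.07 CPM (log2 difference -2.60 ± 0.37, adjusted p = 0.000135), and its groups did not overlap.

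In the indole class 5 genes were higher and 8 lower of 18 (median log2 difference -0.16). MYB51, the regulator tied to immune responses, had 27.3, 24.1, 17 and 25.7 CPM in W_JA and 11.6, 3.82, 4.73 and 7.56 in JA_JA (log2 difference -1.76 ± 0.29, adjusted p = 0.000388), and MYB122 differed by -1.43 ± 0.30. CYP81F2 and the methyltransferases IGMT1 to IGMT4, which modify the indole ring, differed by -1.64 to -0.98. These methyltransferases are close copies in tandem and may share reads. CYP79B3, which starts the indole route, and CYP81F4 were higher (1.09 and 1.17), but CYP81F4 overlaps a gene on the other strand over 2140 bases. CYP79B2 had 76.1, 139.9, 84.5 and 147 and 162, 151, 118 and 151 CPM and did not pass the test (adjusted p = 0.182). The myrosinases that break glucosinolates were among the most abundant genes with a fold over 2. TGG1 had 1860.2, 1933, 1659 and 1825 CPM in W_JA and 4384, 3995, 3688 and 4011 in JA_JA (log2 difference 1.14 ± 0.11, adjusted p = 2.79e-06), and TGG2 652, 733, 609 and 791 and 2039, 1998, 1844 and 2015 (log2 difference 1.5 ± 0.11). Each group of TGG1 and TGG2 was tight and the groups lay apart. Myrosinases are known from guard cells and from idioblasts. The guard cell markers FAMA and MYB60 were also higher (log2 differences 0.70 and 0.54), KAT1 was lower (-0.75) and HT1 was not called (0.25). Their part in the result was not tested. Of the 12 breakdown and ER body genes 5 were higher and 2 lower (median 0.36), with BGLU18, a beta-glucosidase, at 0.64 ± 0.16.

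Of 10 tryptophan genes 4 were higher and none lower (median log2 difference 0.17). TSA1, the alpha subunit of tryptophan synthase, had 173, 206, 194 and 209 CPM in W_JA and 268, 296, 267 and 309.6 in JA_JA, without overlap (log2 difference 0.54 ± 0.09, adjusted p = 0.000325). The other 3 were PAI1, PAI2 and PAI3, isomerase copies that may share reads (0.50, 0.56 and 0.64). Of 14 sulfate assimilation genes 6 were higher and 2 lower (median 0.32). APS3, an ATP sulfurylase, had 30.2, 26.6, 27.4 and 28.3 and 67.4, 58.1, 50.1 and 53.0 CPM (log2 difference 1.02 ± 0.12), and GSH1, the first enzyme of glutathione synthesis, 176, 187, 189 and 189.8 and 278, 263, 277 and 293 (log2 difference 0.58 ± 0.07, adjusted p = 3.44e-05). LSU1, a marker of sulfur shortage, and the transporter gene SULTR1;2 were lower (-1.01 ± 0.25 and -0.72 ± 0.23). The call of SULTR1;2 was lost without JA_JA replicate 3 or 4 or W_JA replicate 1 or 4 (adjusted p = 0.0673, 0.0556, 0.0657 and 0.0578).

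Flavonoid and anthocyanin genes were higher in plants with a JA history. Of 22 tested, 13 were higher, 10 of them over 2-fold, and 2 were lower (median log2 difference 0.80). The late enzymes led, at low levels. 5MAT, which adds malonyl to anthocyanin, had 0, 0.210, 1.03 and 0.512 CPM in W_JA and 4.22, 8.36, 4.37 and 8.2 in JA_JA (log2 difference 3.82 ± 0.60, adjusted p = 0.000224, and 4.64 without W_JA replicate 3). DFR, the first committed step, had 0.319, 0.150, 0.544 and 0.341 and 1.32, 3.50, 1.14 and 1.68 CPM (log2 difference 2.48 ± 0.49). LDOX had 0.0958, 0.0600, 0.544 and 0.341 and 1.32, 5.17, 1.37 and 1.88 CPM (log2 difference 3.20 ± 0.60), with JA_JA replicate 2 apart from its group, and 2.52 without that library or 3.82 without W_JA replicate 3. In each of these 3 genes all JA_JA libraries lay above all W_JA libraries. UGT79B1, an anthocyanin glycosyltransferase, and GSTF12, the carrier of anthocyanin to the vacuole, differed by 2.56 ± 0.38 and 3.36 ± 0.38. GSTF12 overlaps the end of a far more abundant gene on the other strand over 108 bases. The bHLH regulators TT8, EGL3 and GL3 (2.27, 1.87 and 1.33), the MYB regulator PAP1 (0.71) and CHS, chalcone synthase (1.43), were also called higher. C4H and TTG1 were lower (-0.38 and -0.34). GL3 and EGL3 also act in trichome formation, and of the trichome markers GL2 and MYB23 were higher (0.59 and 0.58) and TRY was not called (0.09). The part of trichomes in these values was not tested.

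Growth and chloroplast genes were mostly higher or not called. Of 31 nuclear photosynthesis genes 16 were higher and none lower (median log2 difference 0.45), all by less than 2-fold. FD2, the major leaf ferredoxin, had 1885, 1932, 2399 and 1593 CPM in W_JA and 2711, 3391, 3324 and 2761 in JA_JA (log2 difference 0.64 ± 0.15, adjusted p = 0.00266). LHCB3, a light-harvesting protein, had 6797, 5299, 5104 and 4684 and 6679.6, 8209.7, 8747 and 8371 CPM, so that W_JA replicate 1 overlapped JA_JA replicate 1 (log2 difference 0.55 ± 0.16). The count of 16 moved with single libraries, to 9 and 8 genes without JA_JA replicates 2 and 3 and to 8 and 7 without W_JA replicates 2 and 4. Of 14 chlorophyll genes 10 were higher and 1, the regulator GLK1, lower (median 0.46), or 6 higher without W_JA replicate 2 or 4. CHLG, which attaches the phytol tail, led with 134 ± 20.8 to 214 ± 26.9 CPM (log2 difference 0.67 ± 0.14). Of 63 plastid-encoded genes 19 were higher and 2 lower (median 0.41), but their RNA mostly lacks the poly(A) tails used for the libraries.

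Of 15 cell division genes 7 were higher and none lower (median log2 difference 0.68). CYCD3;1, a cyclin of cell cycle entry, had 2.2, 3.15, 1.97 and 2.02 CPM in W_JA and 6.35, 6.59, 4.77 and 3.70 in JA_JA, without overlap (log2 difference 1.2 ± 0.23, adjusted p = 0.000901). KNOLLE, the syntaxin of the cell plate, had 0.675 ± 0.202 and 1.68 ± 0.360 CPM (log2 difference 1.32 ± 0.32), but it overlaps a far more abundant gene on the other strand over 464 bases. The list stood at low levels, and 4 genes were higher without JA_JA replicate 1 and 3 under a filter of 1 CPM in 4 libraries. Of 11 expansion and auxin genes 5 were higher and none lower (median 0.64), or 8 without W_JA replicate 1. EXPA10, an expansin, had 15.5, 24.5, 33.2 and 35.0 CPM in W_JA and 67.9, 83.3, 97 and 81.6 in JA_JA, with every JA_JA library above (log2 difference 1.61 ± 0.26, adjusted p = 0.000307). Of 11 senescence and chlorophyll breakdown genes 6 were lower and 2 higher (median -0.77). ORE1, a NAC regulator of leaf senescence, had 0.671, 2.16, 2.06 and 1.48 and 0.115, 0.0316, 0.0979 and 0.0336 CPM (log2 difference -4.42 ± 0.61), and SAG13 differed by -3.54 ± 0.62, or by -4.2 without JA_JA replicate 4.

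Other hormone and regulatory lists moved in both directions. Of 16 ethylene genes 7 were lower and 1 higher (median log2 difference -0.31), with EIN4, a receptor, at 20.2, 22.3, 23.9 and 22.9 CPM in W_JA and 15.7, 15.5, 15.7 and 16.2 in JA_JA, a small and uniform difference (-0.50 ± 0.08, adjusted p = 0.000273). ACO4, an ACC oxidase, differed by -1.01 ± 0.21. ACS2 differed by -1.84 ± 0.60, a call lost without JA_JA replicate 1, 2 or 3 or W_JA replicate 2 (adjusted p = 0.0608, 0.0746, 0.0696 and 0.0998). Of 14 gibberellin genes 4 were higher and 5 lower (median -0.01, or 0.07 with upper-quartile scaling), with opposite directions for the catabolic genes GA2OX1 (1.98 ± 0.50) and GA2OX6 (-1.87 ± 0.35) and with RGL3, a DELLA repressor that interacts with JAZ proteins, higher by 1.14. Of 19 ABA, cold and drought genes 2 were higher, the neighbouring copies COR15A and COR15B (0.99 ± 0.28 and 1.09 ± 0.20), and 5 lower, or 3 lower without W_JA replicate 3 or JA_JA replicate 1 or 2 (median -0.31). RD29B and the phosphatase gene HAI1 led the lower ones (-2.49 ± 0.49 and -1.34 ± 0.38). Of 6 touch and early wound genes 3 were lower and 1, the ERF gene ORA47, higher (0.46; median -0.73). The call of ORA47 was lost with library totals (adjusted p = 0.0887) and without JA_JA replicate 1 or 3 or W_JA replicate 1, 2 or 4 (0.0580 to 0.103). TCH3, a calmodulin-like protein, and ZAT10, a zinc finger, were among the lower ones (-2.01 ± 0.27 and -1.45 ± 0.28).

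Clock, flowering and chromatin genes differed by small amounts. Of 17 clock genes 3 were higher and 2 lower (median -0.03, or 0.06 with upper-quartile scaling), by at most 0.79, the value of LUX, at 10.3, 11.9, 16.6 and 12.6 CPM in W_JA and 20.6, 20.13, 21.0 and 27.0 in JA_JA. LUX overlaps a gene on the other strand over 1507 bases. TOC1 and LHY were lower (-0.60 ± 0.13 and -0.66 ± 0.15). Of 7 flowering genes (median -0.02, or 0.06 with upper-quartile scaling) only SOC1 was called, at -0.31 with an adjusted p of 0.0446 (0.0515 with RLE and 0.106 with upper-quartile scaling, 0.0553 with no low-count filter, and 0.0511 to 0.144 without any 1 JA_JA library or W_JA replicate 3 or 4). Of 14 DNA methylation genes 5 were higher and 3 lower (median 0.09). CMT2, a maintenance methyltransferase of heterochromatin, had 38.9, 27.9, 41.0 and 29.7 CPM in W_JA and 51.2, 57.9, 56.4 and 55.4 in JA_JA (log2 difference 0.68 ± 0.12, adjusted p = 0.000551). DML2, a demethylase, was lower, with 25.9, 23.6, 25 and 28.0 and 20, 14.9, 11.5 and 18.2 CPM (-0.67 ± 0.16). For both genes the groups did not overlap. Of 14 small RNA genes (median 0.02, or -0.07 with library totals) 4 were higher, among them AGO4 (0.45 ± 0.12), and 3 lower, led by RDR1 (-1.06 ± 0.20), but 2, 2, 1 and 2 were higher without JA_JA replicate 1 or 2 or W_JA replicate 2 or 3. Of 14 wax and lipid transfer genes 3 were higher and 3 lower (median -0.07, or 0.01 with upper-quartile scaling). LTP4 and LTP3, neighbouring lipid transfer protein genes, moved with W_JA replicate 3. LTP3 had 0.671, 1.5, 22.8 and 2.02 CPM in W_JA and 0.316, 0.789, 1.27 and 1.28 in JA_JA (log2 difference -2.90 ± 1.02), and without that library -0.64 with an adjusted p of 0.495. Its call was also lost without any 1 JA_JA library (0.0504 to 0.0887), with no low-count filter (0.0637) and with the compared groups alone (0.0692). LTP4 moved from -5.74 to -3.25 in the same way, and to -6.69 without JA_JA replicate 4.

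The largest differences outside the lists were in genes of less known function. Of the 10 largest lower genes, ARD3, an acireductone dioxygenase of the methionine salvage cycle, had 8.40, 36.4, 7.26 and 25.3 CPM in W_JA and 1 read in the 4 JA_JA libraries, a ratio of reads of 2488 (95% counting interval 446 to 98289). AT4G10860, an uncharacterized protein gene, had 1.57, 11.6, 4.2 and 5.06 CPM in W_JA and no read in JA_JA, at least 239-fold lower by the limit of 3 reads over the group. AT4G05540 and AT3G28510, both annotated as nucleoside triphosphate hydrolases, had 3.81 ± 1.92 and 35.3 ± 22.1 CPM in W_JA and 0.00840 ± 0.0168 and 0.115 ± 0.129 in JA_JA. Without JA_JA replicate 4 the fitted log2 differences of ARD3, AT4G05540 and AT3G28510 moved from -10.71, -8.37 and -8.27 to -12.37, -10.03 and -9.32. EDA36 (AT4G13890) and AT2G44240 had ratios of 160.5 (44.1 to 1331) and 135 (46.0 to 659), and without JA_JA replicate 1 the fitted difference of AT2G44240 moved from -6.85 to -9.73. AT3G15536, annotated only as an RNA, had 27.1, 63.2, 23.0 and 54.2 CPM and 0.689, 0.189, 0.294 and 0.941 CPM (log2 difference -6.30 ± 0.45). Of the 10 largest higher genes, those outside the anthocyanin list were AT4G02850, annotated as a PhzF-type protein (3.21 ± 0.41), GER3, a germin (2.83 ± 0.43), PDF1, a protodermal factor and not a defensin (2.70 ± 0.38), AT1G31690, a copper amine oxidase (2.64 ± 0.30), and AT3G61920 (2.46 ± 0.44, and 3.29 without W_JA replicate 3). AT1G31690 had 22.3, 37.5, 38.8 and 15.4 CPM in W_JA and 124, 235, 177 and 176 in JA_JA, well apart.

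Among abundant genes, ECS1, a cell wall protein, had 5292, 7031, 5966 and 5938 CPM in W_JA and 1956, 1424, 918 and 2438 in JA_JA (log2 difference -1.85 ± 0.24, adjusted p = 3.4e-05). AT2G25510 and AT5G42530, both uncharacterized, had 5577 ± 1218 and 3388 ± 316 CPM in W_JA and 1187 ± 680.0 and 799 ± 531 in JA_JA. PRXCB, an apoplastic peroxidase, had 1449, 2522, 1409 and 2568 and 645, 534, 601 and 1083 CPM (-1.47 ± 0.25). On the higher side AT1G14250, a nucleoside phosphatase, had 712, 674, 690.3 and 814 CPM in W_JA and 1352, 1514, 1582 and 1742 in JA_JA (1.1 ± 0.16), and AT2G10940, a lipid transfer type protein, 532, 428, 822 and 205 and 676, 1417, 1261 and 972 (1.12 ± 0.34). The AT2G10940 groups overlapped, and its call was lost without JA_JA replicate 2 (adjusted p = 0.0515).

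The same histories were then compared without JA on the adult leaf, JA_W against W_W, which shares no library with the first comparison. There 12471 genes were called (64.9%), 6497 higher and 5974 lower. Of the 7710 genes called under challenge 6645 were called without it too (86.2% of the first list and 53.3% of the second), 6553 of them in the same direction. Across genes, which are not independent replicates, the log2 differences of the 2 contrasts had a Pearson r of 0.86 and a Spearman rho of 0.79, given as a description. For 74.0% of genes tested the difference was smaller in size under challenge than without. The difference between the 2 contrasts (the interaction) was called for 3539 genes (18.4%), 1539 more positive and 2000 more negative under challenge. That count moved with 1 library, to 1012 and 1332 without JA_W replicate 2. Of the 3630 genes higher under challenge, 98 had a more positive and 562 a more negative interaction. Of the 4080 genes lower under challenge, 697 had a more positive and 134 a more negative one (8.01% and 10.4% over all genes). The interaction was called for 129 of the 1065 genes that passed the test under challenge alone (18.4% over all genes).

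**Figure D5:**
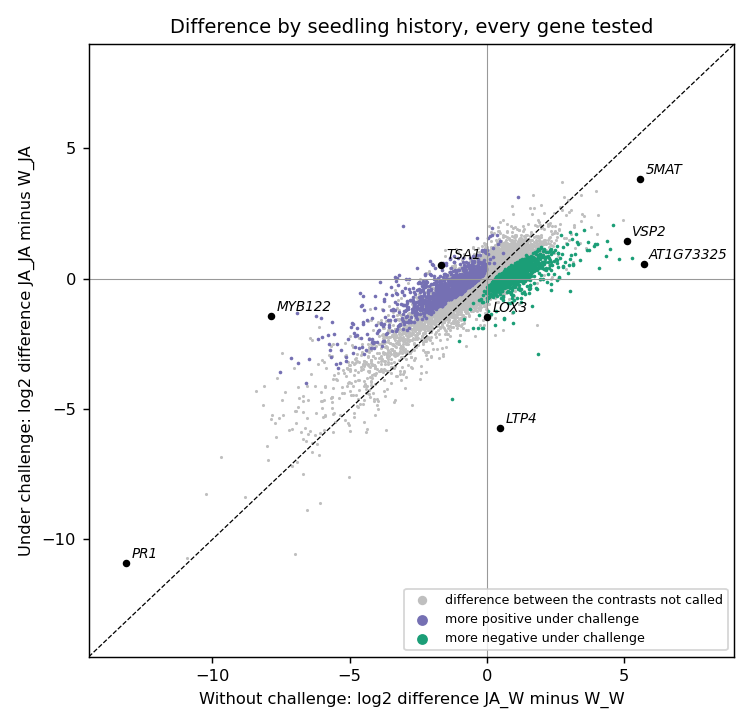
Log2 difference by seedling history without challenge (JA_W minus W_W, horizontal axis) and under challenge (JA_JA minus W_JA, vertical axis) for each of 19224 genes. Colours mark genes whose 2 differences differ by the interaction test, purple where more positive and green where more negative under challenge, and the dashed line marks equal differences. PR1 lies at the lower left (-13.15 and -10.92) and VSP2 below the dashed line at the right (5.09 and 1.44).

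SA and immune genes were lower with a JA history in both settings. All 19 intracellular receptor genes tested and 27 of 28 SA response genes were lower without challenge (31.1% over all genes), against 18 and 20 under it, and the interaction was called more positive for 5 and 14 of them and more negative for none (8.01% and 10.4% over all genes). PR1 stood at 500.4 ± 256 CPM in W_W and 0.0528 ± 0.0674 in JA_W (log2 difference -13.15 ± 1.06), and its interaction was not called (2.23 ± 1.89, adjusted p = 0.446). NIMIN1, a regulator of NPR1, had 10.8 ± 1.07 CPM in W_W and 0.162 ± 0.0803 in JA_W, and 2.74 ± 0.626 and 0.961 ± 0.493 under challenge, so that its difference shrank from -6.03 to -1.51 (interaction 4.53 ± 0.51, adjusted p = 6.29e-05). GRXS13, a glutaredoxin, followed with -7.13 and -3.06. LAS1, a lanosterol synthase, went from 5.30 ± 1.91 and 0.0666 ± 0.0450 CPM to 48.4 ± 21.5 and 18 ± 3.65. Of 292 genes annotated as ribosomal proteins, including organellar ones, 239 were higher without challenge (33.8% over all genes) and 68 under it (18.9%). A more negative interaction was called for 121 of the 292 (10.4% over all genes).

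VSP2, VSP1 and CSLA01 were higher with a JA history in both settings, by less under challenge. VSP2 stood at 3.69 ± 1.27 CPM in W_W and 126 ± 26.4 in JA_W, a log2 difference of 5.09 ± 0.27, against 1.44 ± 0.23 under challenge (interaction -3.65 ± 0.33, adjusted p = 1.05e-05). VSP1 (3.69 and 1.41) and CSLA01, a glucomannan synthase (5.26 and 0.80), had log2 differences in the same order. The protease inhibitor gene AT1G73325 was higher without challenge (5.70), with an interaction of -5.14, or -4.42 without JA_W replicate 1. Its difference of 0.55 under challenge did not pass the test (adjusted p = 0.201, or 0.0078 with the compared groups alone), where it had 72.6, 97.2, 78.7 and 92.8 CPM in W_JA and 102, 125, 134 and 139.8 in JA_JA. Of the 16 MYC-branch genes 8 had a more negative interaction and 1 a more positive one, and of 22 flavonoid genes 10 and 2 (10.4% and 8.01% over all genes). LOX3, lower under challenge, did not pass the test without it: it had 43.6 ± 9.19 CPM in W_W and 43.4 ± 6.26 in JA_W, and its interaction was -1.47 ± 0.40 (adjusted p = 0.0199). TSA1 changed sign, lower with a JA history without challenge (151 ± 14.8 against 47.6 ± 2.75 CPM, -1.67 ± 0.09) and higher under it (interaction 2.21 ± 0.13, adjusted p = 1.27e-07). Of 10 tryptophan genes 6 were lower and 3 higher without challenge (31.1% and 33.8% over all genes). The interaction was more positive for 6 and more negative for 1 (8.01% and 10.4% over all genes).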

How the data were processed

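RNA was poly(A)-selected and sequenced as 50 bp single-end reads, per the labels. Per the submitters' processing notes, the TAIR10 genome was used, and the tools named are HTSeq 0.9.1, STAR 2.6.1b and Trimmomatic 0.38, and whether counting used strand is not given in the sources used here. The authors deposited read counts per gene and CPM for 34262 genes, and 8507 had no read in any library. The counts were tested, and the deposited CPM served only to check them (largest difference 5.09e-11 CPM). Names and promoters came from RefSeq TAIR10.1, which held 32548 of the identifiers.

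Counts of all 16 libraries, 32190193 to 34319939 per library, were fitted by group with edgeR 4.0.16 (R 4.3.3, limma 3.58.1) after TMM scaling (factors 0.888 to 1.14). Genes passed edgeR's filter at a count minimum of 10 and a total of 15, which removed 15038. The robust quasi-likelihood test used 12 residual degrees of freedom, and the biological coefficient of variation was 15.4%. It gave log2 differences and two-sided p-values adjusted by Benjamini-Hochberg over all genes tested. An error after a log2 difference is an approximate SE, the size of the difference divided by the square root of its F statistic. Where a group held few or no reads, the fitted difference depends on the prior count and this SE is only nominal. An error after a CPM mean is the SD (n = 4). The interaction is the difference between the 2 history contrasts. Counting intervals and the limit of 3 reads cover counting error only. Replicates are separate pools of plants, and no pair of challenged libraries of a group was a copy (chi-square per gene 9.53 to 63.3). DESeq2 1.42.0, other scalings and filters, a replicate block, a fit on the compared groups alone and leaving out each library were alternatives. Tables and figures used Python 3.11.15 with pandas 2.3.3, numpy 2.4.6, scipy 1.17.1 and matplotlib 3.10.9.

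The members and lists were chosen with earlier results of these data known. Genes were named by rule: the 10 largest called differences in each direction whose groups lay apart and whose mean level reached 1 CPM, the 6 most abundant called genes in each direction with a fold over 2, up to 4 called genes of each list, the 4 largest interaction differences in each direction, and 7 markers (VSP2, LOX2, JAZ10, ORA59, PDF1.2, PR1 and CYP79B2). Other list members are named to complete a list's account, after their values were seen. The WRKY, TIR-NBS-LRR, ribosomal and plastid lists were formed from annotation text.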

Additional observations from a re-analysis of the deposited data

Results flagged for a closer look

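Among 338 groups of 4 libraries checked, 27 had a library whose gap to the nearest other exceeded Dixon's critical value of 0.829 times the range (7.99%). For 5 of them (ARD3, AT4G05540, AT2G44240, WRKY41 and WRKY67) the other 3 libraries had no read, so that any read passes by construction. For the other 22, chance gives about 5%, or 1 in 20, of groups checked. JA_JA replicate 4 was the library in 9 of the 27, 6 of them among these 22, each time as the highest: PR1 at 0.975 CPM, ARD3 and AT4G05540 at 0.0336, NAC055 at 0.571, CYP71A13 at 8.03, PAD3 at 22.8, ACO4 at 208, LUX at 27.0 and WRKY67 at 0.168. W_JA replicate 3 was the highest in 5, RD29B at 2.33 CPM, COR15A at 899, VIM1 at 4.08, LTP4 at 12.5 and LTP3 at 22.8. In JA_JA, replicate 1 was highest for AT2G44240 (0.0862 CPM) and PDF1.2b (0.201) and lowest for VSP1 (2254). Replicate 2 was highest for LDOX (5.17) and lowest for CRK23 (0.0316) and JAZ10 (12.3), and replicate 3 was highest for WRKY41 (0.0326). In W_JA, replicate 1 was highest for PDF1.2b (1.15), PAI3 (5.05) and DCL3 (8.94), replicate 2 for PROPEP3 (1.14), and replicate 4 for PDF1 (0.540) and TOC1 (29.5).

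For 31 of 169 named genes (18.3%, against 18.4% of all genes tested, and with 8 of them named for their interaction) the history difference under challenge differed from that without it by the interaction test. It was more positive under challenge, on the log2 scale, for MYB122 (6.43, with no read in JA_W), LAS1 (4.82), NIMIN1 (4.53), GRXS13 (4.07), GRXC9 (4.05), EDS1B (2.77), TSA1 (2.21), AT5G45000 (1.95), MYB51 (1.83), SULTR1;2 (1.47), TCH3 (1.44), LSU1 (1.4), TOC1 (0.71) and GSH1 (0.35). The fitted value of MYB122 depends on the prior count and is no bound. It was more negative for LTP4 (-6.22), AT1G73325 (-5.14), LTP3 (-4.76), CSLA01 (-4.47), VSP2 (-3.65), AT1G14250 (-2.53), VSP1 (-2.28), FMOGS-OX2 (-1.61), COR15A (-1.60), BGLU18 (-1.48), LOX3 (-1.47), JAZ9 (-1.12), PAI1 (-0.92), IAA3 (-0.87), ESP (-0.85), DDM1 (-0.66) and AGO4 (-0.52). Of these 31, 24 kept the call in each of the 23 alternatives that tested them (29 of the 31 were tested in all 23) and 7 lost it in at least 1: AGO4, AT5G45000, EDS1B, GSH1, IAA3, LTP3 and LTP4. Without W_JA replicate 3 LTP4 was at -3.72 and LTP3 at -2.51, and without JA_JA replicate 4 LTP4 was at -7.12. GRXC9 was at 4.86 without JA_W replicate 1, and EDS1B at 2.17 without JA_JA replicate 1.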

How the results depend on the processing

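Tested against a 2-fold threshold in place of 0, 45 genes were higher (0.234%) and 606 lower (3.15%) under challenge, against 542 and 1435 called with a fitted fold over 2. The first principal component held 91.8% of the variance with the 500 most variable genes. Leaving out single libraries gave 2592 to 3877 higher and 3141 to 4173 lower genes under challenge, of which 425 to 721 and 1303 to 1593 were over 2-fold. It gave 6034 to 6474 and 5565 to 6066 without challenge, and 1012 to 2015 more positive and 1332 to 2480 more negative interactions, with the lowest pair without JA_W replicate 2. Higher and lower genes under challenge numbered 3995 and 4103 with DESeq2, 3781 and 3950 with RLE factors, 2437 and 5015 with library totals and 4909 and 3291 with upper-quartile factors. More of the called interactions were positive with DESeq2 (2211 against 2014), RLE factors (1792 against 1657) or without JA_JA replicate 2 (1661 against 1346) or 3 (1575 against 1389), so neither sign is given as the majority.

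Replicate numbers were not shown to pair libraries: deviations of same-numbered W_JA and JA_JA libraries correlated at 0.138, -0.220, 0.127 and 0.236 across genes. With the replicate block, 3309 genes were higher and 3859 lower under challenge, 6332 and 5876 without it, and 1387 and 1766 interactions were called. The block ended the calls of JAZ9, SOC1, CYP94C1 and LTP1 (adjusted p = 0.0531, 0.0601, 0.0750 and 0.0646) among the named genes. Of 169 named genes, 163 were called, and none changed direction in an alternative that tested it; 10 were not tested with the filter of 1 CPM and 6 in the fit on the compared groups alone. A call was lost in at least 1 alternative for 19: CYP94C1, SOC1, JAZ4, JAZ9, AOC1, MYB29, SULTR1;2, ACS2, ACO1, PORB, SBPASE, VIM1, DCL3, ORA47, LTP3, KCS12, LTP1, JAM3 and AT2G10940. GRXC9 gained one without JA_JA replicate 4, and AT1G73325 (adjusted p = 0.0078) in the fit on the compared groups alone. The cause of these changes was not tested. Genes with few reads in JA_JA are limited by depth, where 1 read is 0.0295 CPM.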
